A study of Mus musculus with 6 samples.

Results

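The genes for platelet-derived growth factors (PDGF) and their receptors were followed across the 6 arrays of the series. The members were the 4 ligand genes Pdgfa, Pdgfb, Pdgfc and Pdgfd and the 2 receptor genes Pdgfra and Pdgfrb, taken as every array probe that carries one of these gene names, which gave 8 of 55681 probes and 6 of the 36163 names on the array, unnamed loci included. The cells came from the prostate of untreated male FVB/N mice at 6 days of age that carried the Tg 11.5kb-GFP transgene, in which a promoter of s-SHIP, a stem-cell form of the SHIP1 phosphatase, drives GFP. Cells without the blood and endothelial lineage antigens Ter119, CD31 and CD45 and with Sca-1 and CD49f on the surface (LSC cells) were sorted into LSC GFP+ and LSC GFP- cells, with 3 independent samples of each on 3 arrays, and both populations carried the transgene. In these mice some vascular smooth muscle cells also make GFP, and the authors found little or no Sca-1 and CD49f on them by flow cytometry. Whether a sample pooled several animals is not given in the sources used here. The question was how transcripts of GFP+ cells differ from those of the remaining cells of the same basal fraction.

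PDGF ligands are secreted dimers that act on 2 receptor tyrosine kinases. PDGF-A and PDGF-C act mainly through the alpha receptor, PDGF-B through both receptors and PDGF-D mainly through the beta receptor. PDGF-A and PDGF-B are cut inside the cell by furin-like convertases, whereas PDGF-C and PDGF-D leave the cell in a latent form and are activated outside it by proteases such as the plasminogen activators. In many developing organs the ligand Pdgfa is made by epithelium and the receptors by the mesenchyme, smooth muscle and pericytes around it.

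The array reads each transcript through probes of 60 bases, and a stretch of 30 bases of the probes behind the ligand and alpha receptor results is given here, because the values below are hybridization to these sequences. Pdgfa had 2 probes, at chr5:139452934-139452993 and chr5:139452925-139452984 of mm9 (minus strand). Capitals mark bases of the run of 51 bases that the full probes share, and 21 of these lie in both printed stretches. The Pdgfc probe lies at chr3:81017572-81017631 (plus strand), the Pdgfd probe at chr9:6376926-6376985 (plus strand) and the Pdgfra probe at chr5:75593888-75593947 (plus strand). The Pdgfb probes lie at chr15:79826376-79826435 and chr15:79827438-79827497 (minus strand). Positions are those of the array design, and the exon or untranslated region they fall in was not looked up.
Pdgfa probe 1: actgtagcaCTCAGAGAGACAGTGAGAAAG
Pdgfa probe 2: CTCAGAGAGACAGTGAGAAAGCTTCCTTGT
Pdgfc probe: aaatatggagccattgctaacctacccctt
Pdgfra probe: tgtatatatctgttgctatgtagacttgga

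The Pdgfa probes share a run of 51 bases and therefore count as 1 measurement read with a shifted window. The Pdgfb probes share no run longer than 5 bases and read separate parts of the transcript. Each of these probes had 1 spot on an array, except the Pdgfra probe, which had 10.

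Signals are given as log2 values relative to the 75th percentile of their array, and they are compared only between arrays for the same probe. Of the 6 genes, 2 ligands were higher in LSC GFP+ cells (Pdgfa by 1.90-fold and Pdgfc by 2.03-fold), the alpha receptor Pdgfra was lower, and Pdgfb, Pdgfd and Pdgfrb did not pass the test. All 8 probes were well above background on every array of at least 1 population and were tested. At an unadjusted p under 0.05 in limma, 3 probes rose and 1 fell in LSC GFP+ cells, 4 of 8, against 7.9% of the 37005 probes tested in either direction, 3.38% higher and 4.53% lower. The probe that fell, Pdgfra, entered the test only through LSC GFP- cells, where it is high, so its call adds nothing to this count. Among the 33845 probes above background on all 6 arrays 2504 were called, 3 of them PDGF probes, those of Pdgfa and Pdgfc. After adjustment over all probes tested no PDGF probe passed, and 0.0027% of all probes, a single probe, did. With 3 arrays against 3 an exact permutation test cannot go below p = 0.1.

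**Figure D1:**
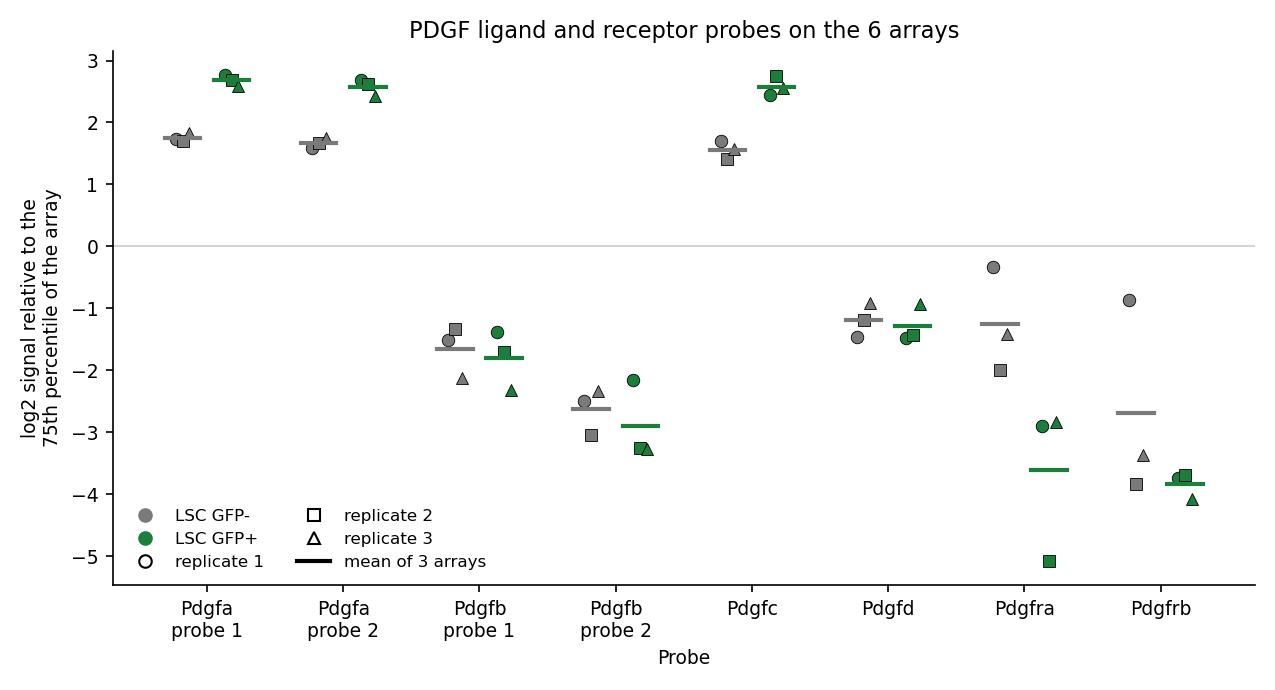
Log2 signal relative to the 75th percentile of the array (vertical axis) for the 8 PDGF probes (horizontal axis), with 1 symbol per array, grey for LSC GFP- and green for LSC GFP+, the symbol shape for the replicate number and a line for the mean of 3 arrays. The green symbols lie above the grey ones for Pdgfa and Pdgfc and below them for Pdgfra, and they overlap for Pdgfb, Pdgfd and Pdgfrb, where a single LSC GFP- array stands at -0.87.

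Pdgfa, a ligand mainly of the alpha receptor, measured 2.77, 2.69 and 2.58 in LSC GFP+ replicates 1, 2 and 3 and 1.73, 1.71 and 1.82 in the LSC GFP- replicates, read with probe 1. All LSC GFP+ arrays were above all LSC GFP- arrays, with a gap wider than the spread within either population. The means were 2.68 ± 0.092 and 1.76 ± 0.061 (SD, n = 3 each). The log2 difference was 0.92 with a standard error of 0.18 and a 95% interval from 0.51 to 1.34 (limma, adjusted p = 0.139). The overlapping probe 2 gave 2.68, 2.62 and 2.43 against 1.59, 1.68 and 1.75, a difference of 0.90 (limma, adjusted p = 0.155). Within the pairs of samples that share a replicate number, probe 1 was higher in LSC GFP+ cells by 1.03, 0.98 and 0.76.

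Pdgfc, also a ligand mainly of the alpha receptor, measured 2.44, 2.75 and 2.55 in LSC GFP+ cells and 1.70, 1.41 and 1.57 in LSC GFP- cells. The populations did not overlap here either. The means were 2.58 ± 0.15 and 1.56 ± 0.15 (SD, n = 3 each). The difference was 1.02 with a standard error of 0.19 and a 95% interval from 0.57 to 1.47 (limma, adjusted p = 0.135). The pairs differed by 0.74, 1.33 and 0.98. The 3 Pdgfa and Pdgfc probes were free of overlap, against 12.3% of all probes tested, and the overlapping Pdgfa probes count as a single measurement. Of all probes tested, 6.61% had every LSC GFP+ array above every LSC GFP- array, as the Pdgfa and Pdgfc probes did. Pdgfra was free of overlap too, but it entered the test only through LSC GFP- cells, where it is high, and adds nothing to this count.

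Pdgfb, the ligand of both receptors that endothelial cells use to recruit pericytes, measured -1.37, -1.71 and -2.32 in LSC GFP+ cells and -1.52, -1.33 and -2.13 in LSC GFP- cells with its brighter probe. The populations overlapped and replicate 3 was the lowest array of each. The difference was -0.14, with a 95% interval from -0.87 to 0.58 (limma, adjusted p = 0.996). The dimmer Pdgfb probe read -2.16, -3.26 and -3.27 against -2.50, -3.04 and -2.33, also overlapping, with a difference of -0.27 and an interval from -1.08 to 0.54 (adjusted p = 0.996). The intervals of both probes hold 0 and changes of either sign, so no difference was detectable with these arrays. Without LSC GFP+ replicate 1, the highest array of the dimmer probe, its difference was -0.64 and passed the unadjusted threshold.

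Pdgfd, a ligand mainly of the beta receptor, measured -1.48, -1.43 and -0.93 in LSC GFP+ cells and -1.46, -1.19 and -0.91 in LSC GFP- cells. The values of the populations overlapped almost fully. The difference was -0.09, with a 95% interval from -0.65 to 0.47 (adjusted p = 0.996). The interval of Pdgfd lies wholly below that of Pdgfc, from 0.57 to 1.47, which is a description of both intervals and not a test between the genes.

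**Figure D2:**
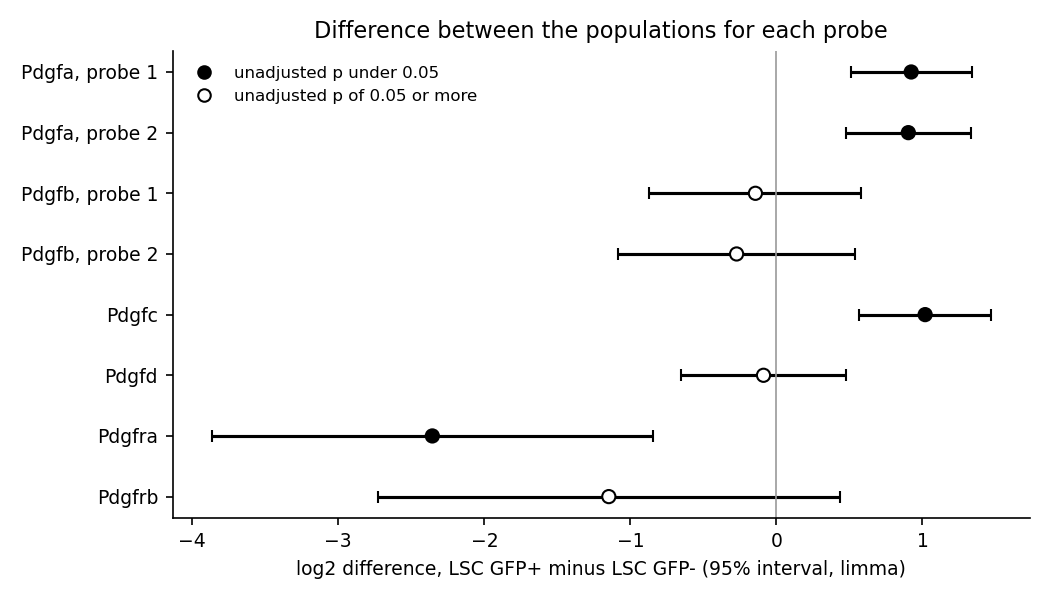
Log2 difference, LSC GFP+ minus LSC GFP-, for each PDGF probe (rows), with the 95% interval from limma as a bar and filled points where the unadjusted p was under 0.05. The Pdgfa and Pdgfc intervals lie above 0, the Pdgfra interval runs from -3.87 to -0.84, and the intervals of Pdgfb, Pdgfd and Pdgfrb cross 0.

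Pdgfra, the alpha receptor and a marker of mesenchyme and fibroblasts, moved the other way. It measured -2.90, -5.08 and -2.84 in LSC GFP+ cells and -0.33, -2.003 and -1.42 in LSC GFP- cells. Every LSC GFP+ array was below every LSC GFP- array, as for 5.65% of all probes tested, and the spread within each population was wide. The means were -3.61 ± 1.27 and -1.25 ± 0.85 (SD, n = 3 each). The difference was -2.36 with a standard error of 0.65 and a 95% interval from -3.87 to -0.84, which is 5.12-fold higher in LSC GFP- cells with an interval from 1.80-fold to 14.6-fold (limma, adjusted p = 0.304). With the spread taken from the Pdgfra values alone, in place of limma's pooling over probes, the difference missed the unadjusted threshold. The exact permutation p was 0.1 for Pdgfra, as for Pdgfa and Pdgfc.

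The 10 spots of the Pdgfra probe show where its signal was dim. Their median processed signal was 51.8, 16.7 and 59.3 in the LSC GFP+ samples (replicates 1, 2 and 3) and 319, 104 and 158 in the LSC GFP- samples. On LSC GFP+ replicate 2 none of the 10 spots was well above background, while the lowest signals that counted as such lay between 15.8 and 25.6 over the arrays. The log2 SD between spots of an array was 0.57 there and between 0.10 and 0.18 on the other arrays, where all kept spots were well above background, with 1 outlier spot left out on LSC GFP+ replicate 1. Without LSC GFP+ replicate 2 the difference was -1.62, and with normexp background correction, which raises dim signals, it was -1.24, both past the unadjusted threshold. Within pairs, Pdgfra was lower in LSC GFP+ cells by 2.57, 3.08 and 1.42.

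**Figure D3:**
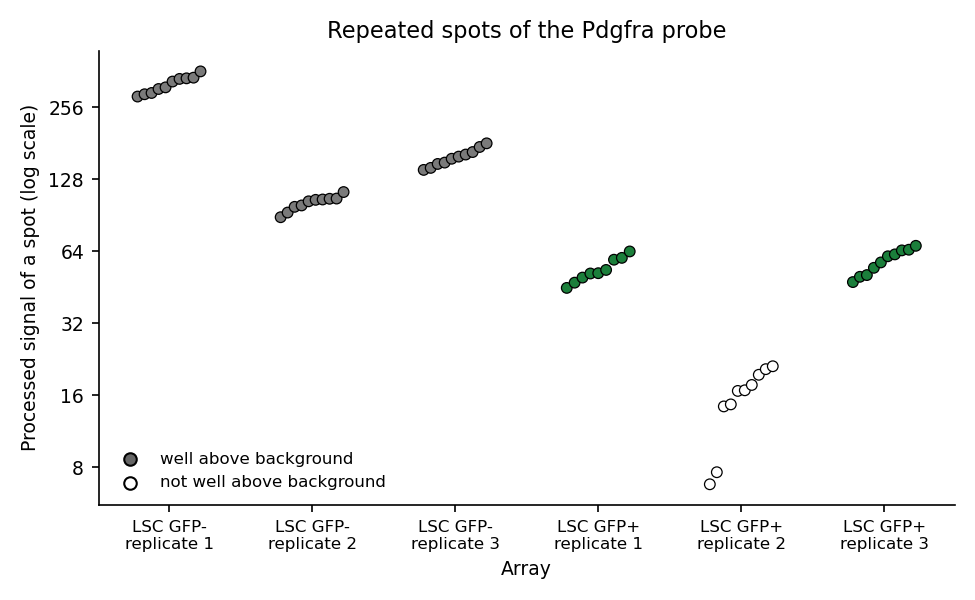
Processed signal (vertical axis, log scale) of the repeated spots of the Pdgfra probe on each array (horizontal axis), sorted within an array, with open symbols where a spot was not well above background. The LSC GFP- arrays have medians of 319, 104 and 158, the LSC GFP+ arrays lie below them, and all open symbols belong to LSC GFP+ replicate 2.

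An unnamed probe on the opposite strand near Pdgfra, at chr5:75549635-75549694 of mm9, was well above background on 4 arrays and differed by -0.44, which did not pass the unadjusted threshold.

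Pdgfrb, the beta receptor, a marker of pericytes, smooth muscle and fibroblasts, measured -3.75, -3.69 and -4.07 in LSC GFP+ cells and -0.87, -3.83 and -3.37 in LSC GFP- cells. LSC GFP- replicate 1 stood alone, while LSC GFP- replicate 2 lay within the range of the LSC GFP+ arrays and replicate 3 just above it. The difference was -1.15 with a standard error of 0.68 and a 95% interval from -2.73 to 0.43 (adjusted p = 0.829), so the test was not passed. Without LSC GFP- replicate 1 it was -0.24, and without LSC GFP- replicate 2 it was -1.72 and passed the unadjusted threshold. The receptors therefore had in common that LSC GFP- replicate 1 was their highest array and, within LSC GFP- cells, that replicate 3 came next and replicate 2 last.

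LSC cells are sorted as basal epithelium, and the markers of other cells were read beside the receptors. The basal keratins Krt5 and Krt14, the basal transcription factor Trp63 and the CD49f gene Itga6 were well above background on all 6 arrays, as were the luminal keratins Krt8 and Krt18. Of 9 basal markers tested 6 were higher in LSC GFP+ cells and none lower (median log2 difference 0.70), and of 11 luminal markers 1 was higher and 2 were lower (median -0.22). The share of all genes called, by their brightest probe, was 7.67%. Of 15 fibroblast and mesenchyme markers tested, 9 were lower in LSC GFP+ cells, such as the collagen genes Col1a1 by -2.18 and Col3a1 by -1.97, and 3 were higher, the matrix genes Dcn by 1.19, Fbln1 by 0.90 and Fbln2 by 1.30 (median of the list -1.19). Twist1 and Prrx1, among the lower ones, entered the test only through LSC GFP- cells, and of the 13 markers above background on all 6 arrays 7 were lower and 3 higher. Twist1 was not well above background on any LSC GFP+ array, and the adjusted p of its measured values was 0.213 (limma). With dimmer LSC GFP+ values raised to the lowest signal well above background on their array, its mean was 1.41-fold higher in LSC GFP- cells. Of 10 smooth muscle and pericyte markers 8 were lower, such as Acta2 by -2.13, Myh11 by -2.01 and the pericyte gene Rgs5 by -1.13, and none was higher (median -1.32).

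On LSC GFP- replicate 1, where both receptors peaked, the summed linear signal of the fibroblast list was 68.4 times the 75th percentile of the array, against 30.4 and 45.3 on the other two LSC GFP- arrays and 29.7 to 36.9 on the LSC GFP+ arrays. The sum of the smooth muscle list did not part the populations, at 401.8 to 503 in LSC GFP+ and 377 to 511 in LSC GFP- cells, and was carried by Mcam, a surface protein also found outside these cells. The order of Pdgfra over the LSC GFP- arrays was shared by 9 of 15 fibroblast markers (Col1a1, Col1a2 and Col3a1 among them). It was shared by 5 of 10 smooth muscle markers (Acta2 among them), 0 of 9 basal and 0 of 11 luminal markers. The counts were 0 of 7 for endothelial, 2 of 8 for leukocyte and erythroid and 2 of 8 for glial and neuronal markers, and 8.92% of all genes tested had this order. Dcn, Pdgfc, Pgf, Kitl and Fyn, which were higher in LSC GFP+ cells, had it too. LSC GFP- replicate 1 was the highest LSC GFP- array for 11 fibroblast, 7 smooth muscle, 2 basal and 0 luminal markers. The same held for 6 of 8 leukocyte and erythroid, 3 of 8 glial and neuronal and 0 of 7 endothelial markers, and for 24.7% of all genes. Without that array 8 fibroblast markers and 7 smooth muscle markers were lower in LSC GFP+ cells (of 15 and 11 tested, medians -0.92 and -1.25), and Pdgfra differed by -1.90 and passed the unadjusted threshold. In sorted populations of many cells, fewer cells of a type and less RNA per cell cannot be told apart, and the part of these cell types in the receptor results was not tested.

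**Figure D4:**
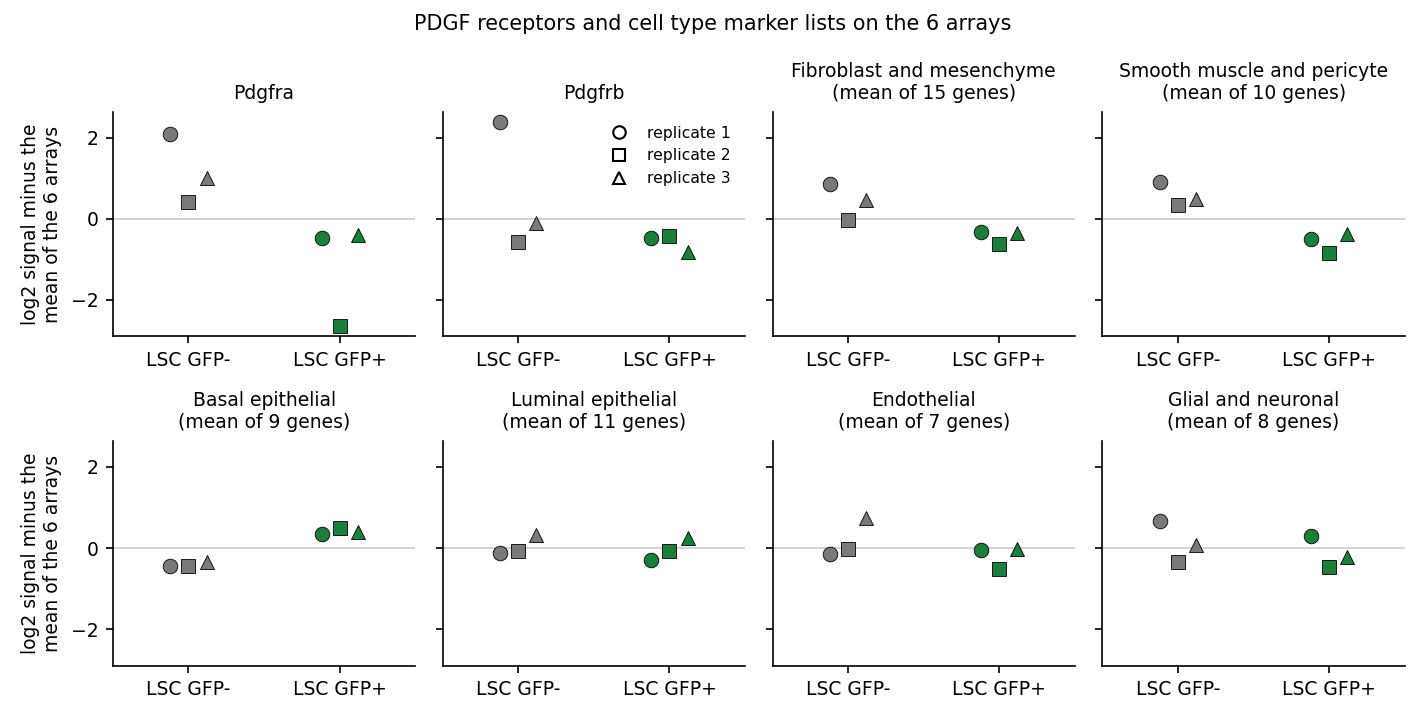
Log2 signal minus the mean of the 6 arrays (vertical axis) for Pdgfra, Pdgfrb and the mean over the tested genes of 6 marker lists, with LSC GFP- arrays in grey and LSC GFP+ arrays in green and symbol shapes for the replicate numbers. Both receptors and the fibroblast, smooth muscle, and glial and neuronal lists are highest on LSC GFP- replicate 1, whereas the basal list is higher on all LSC GFP+ arrays.

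The remaining lists mark cells that the lineage antibodies should remove, and nerve. Of 7 endothelial markers tested, 1 (Vwf, a clotting factor carrier, by -0.82) was lower and none higher. The list's summed signals were 6.87 to 7.56 in LSC GFP+ and 7.02 to 9.13 in LSC GFP- cells. They were carried by Kdr with means of 2.52 and 2.50, read with its brighter probe, as the dimmer missed the filter for testing. Cdh5, Tie1 and Emcn missed the filter for testing, and were highest on LSC GFP- replicate 3, at -2.24, -2.47 and -3.18. The mean of the tested endothelial genes, centred over the 6 arrays, was also highest there, at 0.74, and the cause was not tested. Of 8 leukocyte and erythroid markers none passed (26.1 to 32.1 and 26.8 to 27.8), and Lyz2, a lysozyme of myeloid cells, stayed near background on all 6 arrays. These sums were carried by the brightest Csf1r probe, with means of 4.69 and 4.62, whereas its other probes averaged -1.65 and -3.74 over the arrays. Of 8 glial and neuronal markers none passed (258.7 to 334.2 and 247.3 to 349.1), with sums carried by Snap25 (means 7.42 and 7.43) and Elavl4 (6.66 and 6.76). With the replicate block 2 of these markers were lower in LSC GFP+ cells. Without LSC GFP- replicate 2, when 11 could be tested, 4 were lower (median -0.72, beside -0.18 with all arrays). Without LSC GFP- replicate 1, by contrast, 1 of 8 was higher and none lower (median -0.09). Cdh19 and Olig1 stayed near background on all 6 arrays, and the neuronal tubulin Tubb3 was highest, at 4.78, on LSC GFP- replicate 1 and lower in LSC GFP+ cells in every pair, with differences of -1.77, -1.05 and -1.08. Pdgfa and Pdgfc rose with the basal list, whose summed signal was 228.0 to 244.9 in LSC GFP+ and 170.6 to 180.9 in LSC GFP- cells, and with Dcn, Fbln1 and Fbln2, and the part of cell makeup in the ligand results was not tested.

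The rest of the pathway was read from 5 lists of 61 genes, each gene by its brightest probe. Of the 59 genes tested, 4 rose and 4 fell in LSC GFP+ cells, against 3.39% and 4.28% of all genes, and the median log2 difference was 0.05, beside -0.0068 over all genes by their brightest probe. Pcsk6, which rose, entered the test only through LSC GFP+ cells, and with a filter for signal on all 6 arrays 3 rose and 4 fell. Kitl, Nrp1, Pgf and Ptprj were called under every alternative run. Plau, Kit, Fyn and Pcsk6 each lost the call in several runs. Among these were scaling by the array median for Plau and Kit and normexp background correction for Fyn and Pcsk6. The methods' t-test called Fyn but not Plau, Kit or Pcsk6, and each of the 4 genes also lost the call in runs with 1 array left out.

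Of 7 proteases that can release active ligand, 1 was lower, 1 was higher and 5 did not pass. Plau, the urokinase plasminogen activator that can activate PDGF-D, measured 2.15, 2.82 and 3.37 in LSC GFP+ cells and 3.30, 3.76 and 3.93 in LSC GFP- cells, and the difference was -0.88 (limma, adjusted p = 0.518). Its populations overlapped, by the highest LSC GFP+ and the lowest LSC GFP- array. Pcsk6, a furin-like convertase, measured -3.77, -3.21 and -4.06 in LSC GFP+ cells and was not well above background on any LSC GFP- array. Its LSC GFP- values were -4.03, -4.78 and -4.85, so the populations overlapped, and the difference was 0.87 (limma, adjusted p = 0.481). With dimmer LSC GFP- values raised to the lowest signal well above background on their array, the means differed by 1.64-fold. That value leaves the spread between arrays out. Furin, the convertase best known for PDGF-A and PDGF-B, differed by 0.16 (adjusted p = 0.996), and Plat, the tissue plasminogen activator that can activate PDGF-C, by -0.12 (adjusted p = 0.996). St14, the epithelial protease matriptase, differed by -0.12 (adjusted p = 0.996).

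Among 15 receptor partners and brakes, 2 were lower in LSC GFP+ cells and none higher. Nrp1, a co-receptor of PDGF and VEGF ligands, measured -3.82, -3.83 and -3.16 in LSC GFP+ cells and -2.47, -2.37 and -2.16 in LSC GFP- cells, without overlap, a difference of -1.27 (limma, adjusted p = 0.138). Ptprj, a receptor phosphatase that removes phosphate from PDGF receptors, measured 0.93, 1.47 and 1.33 against 2.24, 2.46 and 2.26, also without overlap, a difference of -1.08 (limma, adjusted p = 0.145), and its other probes gave -0.97, -0.89 and -0.84. The other 13 did not pass. Cspg4 (NG2), a pericyte proteoglycan that binds PDGF-A, differed by 0.01 (adjusted p = 0.998). Pdgfrl, a receptor-like protein without a kinase, differed by -0.37 (adjusted p = 0.992) and was highest on LSC GFP- replicate 1, at 0.11, like the receptors. The phosphatase gene Ptpn2 differed by 0.25 (adjusted p = 0.959).

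Of the 23 adaptors and effectors that carry the signal from the activated receptors, 1 was higher and none lower. That gene was Fyn, a kinase of the Src family, with -2.38, -2.71 and -2.03 in LSC GFP+ cells and -2.80, -3.21 and -3.12 in LSC GFP- cells, a difference of 0.67 (limma, adjusted p = 0.481). The adaptor Grb2 differed by 0.41 (adjusted p = 0.684) without overlap and its dimmer probe by -0.08, the lipid kinase subunits Pik3r1 and Pik3ca by 0.32 and 0.36 (adjusted p = 0.838 and adjusted p = 0.804), the phospholipase Plcg1 by 0.35 (adjusted p = 0.904) and the phosphatase Ptpn11 by 0.05 (adjusted p = 0.996). The 23 differences ran from -0.25 to 0.67, a narrower range than the ligands and receptors spanned.

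The vascular growth factors are the closest relatives of the PDGF ligands. Pgf, placental growth factor, measured 1.18, 0.50 and 0.38 in LSC GFP+ cells and -0.45, -0.75 and -0.55 in LSC GFP- cells, without overlap, a difference of 1.27 (limma, adjusted p = 0.148). It alone passed of the 7 tested genes of this list in the fit without pairing, and Figf and Flt4 were too dim to be tested. Its receptor Flt1 differed by 0.84 (adjusted p = 0.872) with its brighter probe and by 0.05 with the dimmer. The main VEGF receptor Kdr differed by 0.02 (adjusted p = 0.996) with the brighter of its 2 probes, and the dimmer missed the filter for testing. The co-receptor Nrp2 differed by -1.57 (adjusted p = 0.837), with LSC GFP- replicate 1 alone at 2.38, and its dimmer probe by -1.90, past the unadjusted threshold. With the replicate block Flt1 and Nrp2 were called too, each with 1 sign in every pair (Flt1 0.74, 0.26 and 1.53, Nrp2 -2.67, -1.21 and -0.82).

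The kinases nearest to the PDGF receptors in structure are Kit, Csf1r and Flt3. Kitl, the ligand of Kit, measured 1.74, 1.91 and 1.995 in LSC GFP+ cells and 0.83, 0.56 and 0.75 in LSC GFP- cells, a difference of 1.17 (limma, adjusted p = 0.106). Kit itself measured -0.99, 0.02 and -0.29 against 0.35, 0.45 and 0.23, a difference of -0.76 (limma, adjusted p = 0.495). Neither gene's populations overlapped. The ligand genes Pdgfa, Pdgfc and Kitl thus measured higher and the receptor genes Pdgfra and Kit lower in LSC GFP+ cells. Pdgfra entered the test only through LSC GFP- cells, and Kit lost its call in several alternative runs, the methods' t-test among them. Pgf and its receptor Flt1 had the same sign, at 1.27 and 0.84, and no relation between ligands and receptors was tested. Csf1, Csf1r, Il34, Flt3 and Flt3l had differences between -0.32 and 0.07 and did not pass.

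**Figure D5:**
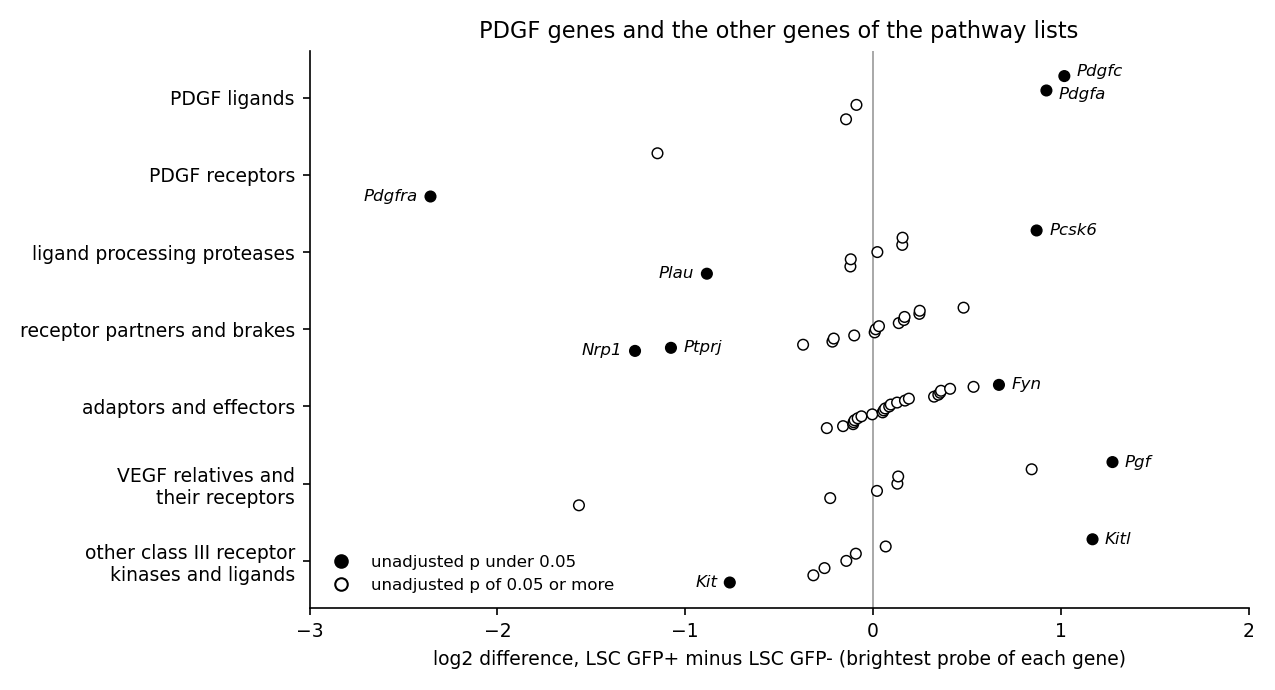
Log2 difference, LSC GFP+ minus LSC GFP- (horizontal axis), of the brightest probe of each tested PDGF and pathway gene, with 1 row of points per list and filled, named points where the unadjusted limma p was under 0.05. The adaptors cluster around 0, Pdgfa, Pdgfc, Pgf and Kitl lie to the right near 1, and Pdgfra lies farthest to the left at -2.36.

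For each PDGF gene measured well above background on all 6 arrays, the genes with the most similar pattern were taken by the root mean square distance of centred log2 values over the 6 arrays, among 23720 genes. Nearest to Pdgfa were Sh3rf2 (distance 0.074), Dusp6, a phosphatase of the ERK kinases (0.076), and Tspyl3 (0.094). Nearest to Pdgfc were the homeobox gene Hoxd13 (0.077), 1190002N15Rik (0.078) and Arhgef3 (0.081). Nearest to Pdgfrb were Nap1l5 (0.17), Mapk8ip2 (0.28) and Disp2 (0.29), at greater distances, and all 3 had their highest array in LSC GFP- replicate 1. The patterns of Pdgfd and Pdgfb lay nearest to Pop4, Zfp708 and Mterfd2 (0.026 to 0.038) and to Park2 (0.032) and 2 probes without a gene name. Pdgfra was left out of this search because LSC GFP+ replicate 2 was at background.

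The sequence just before the start of the 2 ligand genes that rose is shown because both moved the same way. The windows hold the 250 bases before a RefSeq transcript start, 5′ to 3′ on the gene's strand, in GRCm38.p6, a different build from that of the probe positions. Pdgfa has listed starts with the windows chr5:138994282-138994531 and chr5:138994945-138995194 (minus strand), and Pdgfc one with chr3:81036166-81036415 (plus strand). Capitals mark the GC box GGGCGG, on either strand.
Pdgfa start 1: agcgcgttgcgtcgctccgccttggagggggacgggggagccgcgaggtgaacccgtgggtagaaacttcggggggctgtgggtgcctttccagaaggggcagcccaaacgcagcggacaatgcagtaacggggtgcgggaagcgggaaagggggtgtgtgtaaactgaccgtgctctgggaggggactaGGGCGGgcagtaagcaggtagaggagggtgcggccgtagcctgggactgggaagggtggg
Pdgfa start 2: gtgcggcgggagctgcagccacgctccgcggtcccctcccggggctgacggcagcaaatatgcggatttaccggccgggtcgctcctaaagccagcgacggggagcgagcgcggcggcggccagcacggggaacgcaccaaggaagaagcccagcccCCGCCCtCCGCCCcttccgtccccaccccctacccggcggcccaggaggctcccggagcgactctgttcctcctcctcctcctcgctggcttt
Pdgfc: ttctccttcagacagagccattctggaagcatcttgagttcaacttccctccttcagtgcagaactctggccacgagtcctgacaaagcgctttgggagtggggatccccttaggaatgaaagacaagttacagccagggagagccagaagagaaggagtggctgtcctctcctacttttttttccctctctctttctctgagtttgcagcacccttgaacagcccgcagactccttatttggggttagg

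The windows have little in common. The Pdgfa windows have a GC content of 66.4% and 72.4% with 19 and 28 CpG dinucleotides, against 50.8% and 3 for Pdgfc and medians of 52.4% and 6 over 32851 windows. The GC box was found once and 2 times in the Pdgfa windows and not in the Pdgfc window, and 32.7% of all windows hold it. The TATA box TATAAA (12.4% of all windows), the Egr site GCGGGGGCG (2.57%), the LEF/TCF site CTTTGAA (4.46%) and the androgen receptor half-site AGAACA (16.1%), searched on both strands, matched none of the 3 windows. The windows of Pdgfd and Pdgfra, which did not rise, have GC contents of 53.6% and 54.4% and hold a TATA box and no searched motif, respectively. A match or its absence describes the letters in these windows only.

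Over the whole array, 1250 probes rose and 1675 fell in LSC GFP+ relative to LSC GFP- cells, and with scaling by the array median in place of the 75th percentile 1471 rose and 1299 fell, the median difference of all probes moving to 0.06. Under that scaling Pdgfa and Pdgfc differed by 0.99 and 1.09 and Pdgfra by -2.29, each with the same sign and past the same threshold.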

How the data were processed

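Total RNA of sorted cells was amplified with the Ovation Pico WTA kit, labeled with Cy3 and hybridized by the authors to single-colour SurePrint G3 arrays. Per the file headers, the deposited intensity values (processed signal) are linear, background-subtracted and detrended, with surrogates for dim spots and no normalization between arrays. The headers name Feature Extraction 11.0.1.1 and the submitters' processing notes 10.7.3.1. All 6 arrays share 1 slide and 1 scan, so neither could be compared. No spot was saturated, and 36651 to 42123 probes per array were well above background.

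Log2 signals were centred on the 75th percentile of their array, outlier spots (123 to 154 per array) were dropped and spots of a probe averaged. A probe was tested when well above background on all 3 arrays of a population. Populations were compared with limma 3.58.1 (R 4.3.3), two-sided, with Benjamini-Hochberg adjustment over 37005 probes. A call is an unadjusted p under 0.05. Pathway and marker genes are represented by their brightest probe. The values of the series table are the same signals, rounded, and served as an alternative, with normexp correction, other scalings and filters, the methods' t-test, the replicate block and each array left out. Data of 36990 probes were simulated with independent normal noise at limma's own variance estimates. On these, limma found 95% of probes changed by a log2 value of 1 at the unadjusted threshold and 9 of 100 after adjustment. The simulation held no deviations shared between samples, so its shares describe that setting only. Same-numbered samples of the populations deviated together (r = 0.43, 0.28 and 0.67), and samples with unlike numbers had r from -0.55 to 0.22. The numbers in the labels were therefore taken to pair the samples. The main fit did not use this pairing, and the replicate block did. Genes were named as members of the lists when they passed the threshold or stood beside a PDGF result. The members and lists were chosen with earlier results of these data known. Promoter windows are from RefSeq (GRCm38.p6), which held 4 of the 6 genes in the table used here. The number of arrays limits the precision.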

Additional observations from a re-analysis of the deposited data

How the results depend on the processing

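Pdgfa (probe 1, 0.86 to 0.99) and Pdgfc (0.94 to 1.09) kept their direction and passed the threshold under every alternative run, 18 and 17 of them. Pdgfra kept its direction in all 16 alternatives run, from -2.74 to -1.24, and passed in 15, the exception being the methods' t-test (-2.36, over the threshold). With the filter that asks for signal above background on all 6 arrays it was not tested. Leaving out 1 array at a time, the brighter Pdgfb probe ranged from -0.38 to 0.11, with positive values of 0.02 and 0.11, Pdgfd from -0.26 to 0.05, with positive values of 0.013 and 0.051, and Pdgfrb from -1.72 to -0.24. The number of other pathway genes called ranged from 5 (without LSC GFP- replicate 2, and without LSC GFP- replicate 3) to 9 beside 8 with all arrays. With the replicate number as a block to respect the pairing, 5480 probes were called in place of 2925 and none after adjustment, Pdgfra differed by -2.36 as before, 12 other pathway genes were called, and the block changed the call of none of the 8 PDGF probes. The cause of these shifts was not tested. Dim signal limits what can be said of Pdgfra, Pdgfrb and the dimmer Pdgfb probe.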
